A study of Mus musculus with 6 samples.

Results

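The cytosolic ribosomal protein genes encode the proteins of the large and small subunits of the ribosome that makes protein outside mitochondria. They were chosen by gene symbol alone: every symbol of the array annotation that begins with Rpl or Rps and a number, together with the stalk genes Rplp0 to Rplp2 and Rpsa, without the Rps6k kinases and Rps19bp1. A gene entered if at least 1 probe set named it and no other gene, and the probe set with the highest mean over the 6 arrays stood for it. The rule gave 50 genes among 18193, of which 26 belong to the large subunit and 24 to the small subunit. Of the 50, 7 are near relatives or a pseudogene (Rpl3l, Rpl22l1, Rpl39l, Rpl7l1, Rps4l, Rps27l and Rps15a-ps6), and 43 are not. A further 54 symbols of the family, 31 of them not marked as pseudogenes, lie only in probe sets shared with other symbols, so Rplp1, Rpl3, Rpl5, Rpl10 and Rpl36a, among others, have no value of their own.

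RNA levels were measured on Affymetrix arrays in 3 irradiated and 3 control cultures of mouse mesenchymal stem cells, a commercial preparation of multipotent stromal cells. The irradiated cultures received 2 h of pulsed broadband terahertz radiation, centred near 10 THz, in 35 fs pulses repeated at 1 kHz, with a mean power of 1 mW per cm2. In each of 3 independent experiments, a control dish was kept next to the irradiated one, so the arrays form 3 pairs, and RNA was taken directly after exposure. All 6 cultures had been given a mix of rosiglitazone (1 µM), insulin (5 µg/ml), IBMX (100 µM) and dexamethasone (1 µM) 48 h earlier, a mix that drives fat cell formation, and all were held at 26 to 27 °C during the exposure. The values are log2 levels after robust multi-array averaging (RMA), a summary of the probes of a set that also equalizes the arrays.

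A ribosome is built from ribosomal RNAs and ribosomal proteins, and most cells make the proteins in matched amounts because unpaired ones are degraded. The mRNAs of these genes share a 5′ terminal oligopyrimidine motif, a stretch of C and T at the transcription start, through which the kinase mTORC1 and the RNA-binding protein LARP1 control their translation. In growing cells they are among the most abundant and stable mRNAs, and the array reads the amount of mRNA, not its translation.

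Start-site sequences are shown because this motif is what the family is known by. The RefSeq promoter table (mouse build GRCm38.p6, 250 bases before to 50 after each start) held 43 of the 50 genes. An unbroken run of at least 7 C or T on the coding strand, beginning within 15 bases of an annotated start, was found in 24 of these 43, against 23.4% of all 27025 genes in the table. It was found in 14 of the 27 genes with a mean level of 13 or more, and in 10 of the 16 others. The genes shown are examples, all but Rpl3l with a run, so they do not reflect the share over the family. Where a gene had several starts, one with a run was preferred. Each line below gives 20 bases before and 20 after the start, on the gene's strand, with the run in capitals.
Rplp2: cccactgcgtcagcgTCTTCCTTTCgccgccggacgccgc
Rps18: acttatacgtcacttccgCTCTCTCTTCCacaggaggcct
Rps10: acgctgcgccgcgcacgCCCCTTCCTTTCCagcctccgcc
Rpl35: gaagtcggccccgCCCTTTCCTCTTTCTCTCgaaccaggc
Rpl38: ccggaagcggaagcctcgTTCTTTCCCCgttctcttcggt
Rps6: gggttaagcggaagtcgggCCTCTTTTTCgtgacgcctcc
Rpl39l: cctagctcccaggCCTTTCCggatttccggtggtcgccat
Rpl3l: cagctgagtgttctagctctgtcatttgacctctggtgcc
These windows lie at chr7:141447631-141447670 (plus strand) for Rplp2, chr17:33955646-33955685 (minus) for Rps18, chr17:27635225-27635264 (minus) for Rps10 and chr2:39005112-39005151 (minus) for Rpl35. The others lie at chr11:114668560-114668599 (plus) for Rpl38, chr4:86857348-86857387 (minus) for Rps6, chr16:10170208-10170247 (plus) for Rpl39l and chr17:24727806-24727845 (plus) for Rpl3l. The run was 18 bases long in Rpl35, 13 in Rps10 and 7 in Rpl39l, and Rpl3l had none in this window. The letters CCGGAAG, the core bound by ETS family factors, stood on either strand of the table's window in 21 of 43 genes, against 9.93% of all genes, and 13 genes held both this core and a run. On the coding strand its reverse complement, CTTCCGG, can overlap a run. AAGATGG, the core of the YY1 motif, stood on either strand in 8 of 43 genes, against 7.28% of all genes. TATAAA, a form of the TATA box, stood on either strand in 6 of 43, against 15.7%. A match is a description of the letters and no evidence of binding.

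Most members lay close to the top of the array's scale. The highest value of any probe set on any array was 14.57, the median probe set had a mean level of 4.84, and the median member had 13.26. The rule takes the brightest probe set of a gene, so these levels are a description. A mean of 13 or more was reached by 31 of the 50 members, and by 71 of the 18143 other genes when each was given its brightest set in the same way (0.391%). Over all 106 probe sets that name a member alone, 50 reached 13, against 239 of all 45037 probe sets (0.531%), and 17 members were among the 100 brightest probe sets. Counting probe sets shared with other symbols as well, the family held 56 of the brightest 100.

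Rps29, a small subunit protein, had 14.03, 14.01 and 14.05 in irradiated cultures 1 to 3 and 14.05, 14.07 and 14 in control cultures 1 to 3. Rplp2, an acidic protein of the stalk that recruits elongation factors, had 14, 14.02 and 14.04 in irradiated cultures and 14.04, 14.06 and 14 in controls. In both genes the groups overlapped, and all 6 cultures lay within 0.07. The next by level were Rpl41, a very short basic protein of the large subunit, with 13.93 to 13.98 in irradiated cultures and 13.92 to 13.97 in controls, and Rps28, with 13.93 to 13.96 in irradiated cultures and 13.91 to 13.99 in controls. Rps2, a protein of the mRNA entry channel, had 13.87 to 13.89 in irradiated cultures and 13.83 to 13.87 in controls. Differences in level between probe sets also reflect the probes, so these positions do not rank the genes by mRNA amount.

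**Figure D1:**
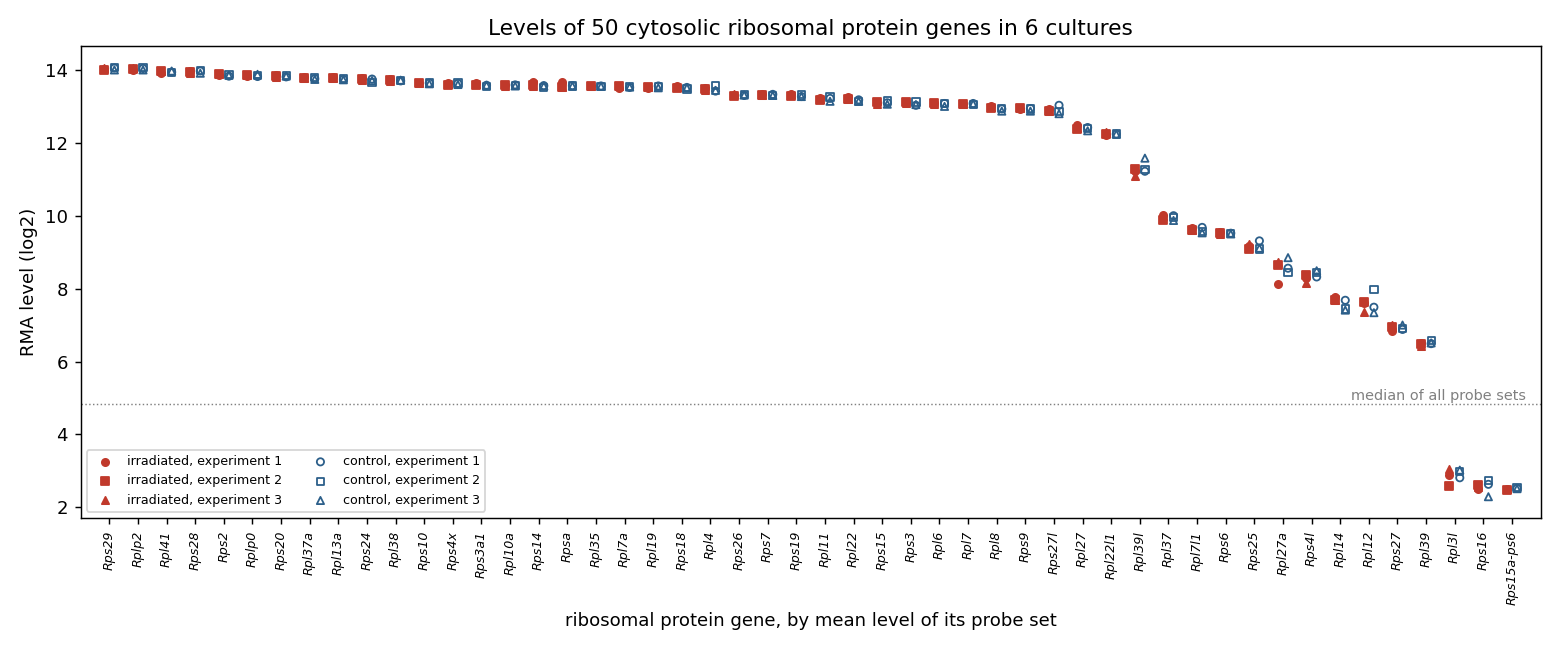
RMA level (log2) of each of the 50 genes in the 6 cultures, with filled red marks for irradiated and open blue marks for control cultures, and 1 mark shape per experiment. The 31 genes at or above 13 form a flat shelf in which the 6 marks of a gene nearly coincide, while 13 genes lie below 10 and 3 of them below 4.

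The 31 members at or above 13 barely varied. Their SD over the 6 arrays had a median of 0.0242 on the log2 scale (0.0055 to 0.0575), against 0.0588 in the 127 probe sets at or above 13 that list no family symbol and 0.134 in all probe sets. Rpl35, a large subunit protein at the exit tunnel, was the steadiest, with 13.56, 13.56 and 13.55 in irradiated cultures and 13.56, 13.55 and 13.55 in controls. Rpl4, which lines the same tunnel, was the most variable, with 13.51, 13.49 and 13.46 in irradiated cultures and 13.42, 13.58 and 13.44 in controls. Even in Rpl4 the 6 values spanned only 0.16, with control culture 2 above the rest.

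Hybridization controls, bacterial and phage transcripts added in known steps of concentration, were read on the same arrays. Control culture 3 had higher values than the mean of the other 5 arrays in all 18 of these probe sets. The excess was 0.626 to 0.742 for bioB, at levels of 8.58 to 9.48 on the other arrays, and 0.57 to 0.666 for bioC, at 9.98 to 10.83. It was 0.354 to 0.484 for bioD, at 11.1 to 12.99, and 0.136 to 0.248 for cre, at 13.47 to 14.28. By kind of control, the excess on this array was thus smaller nearer to the ceiling. Each kind lay in its own range of levels, so level and transcript cannot be told apart here. The 31 members at or above 13 had a median of -0.02 in control culture 3 relative to the other 5 arrays (-0.088 to 0.034). Of these members, 28 were below 0. The median over all probe sets was likewise lowest on that array, at 4.82 against 4.84 to 4.87 on the other 5. Whether, and how much, the scale compresses true differences among the controls or the members was not tested.

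**Figure D2:**
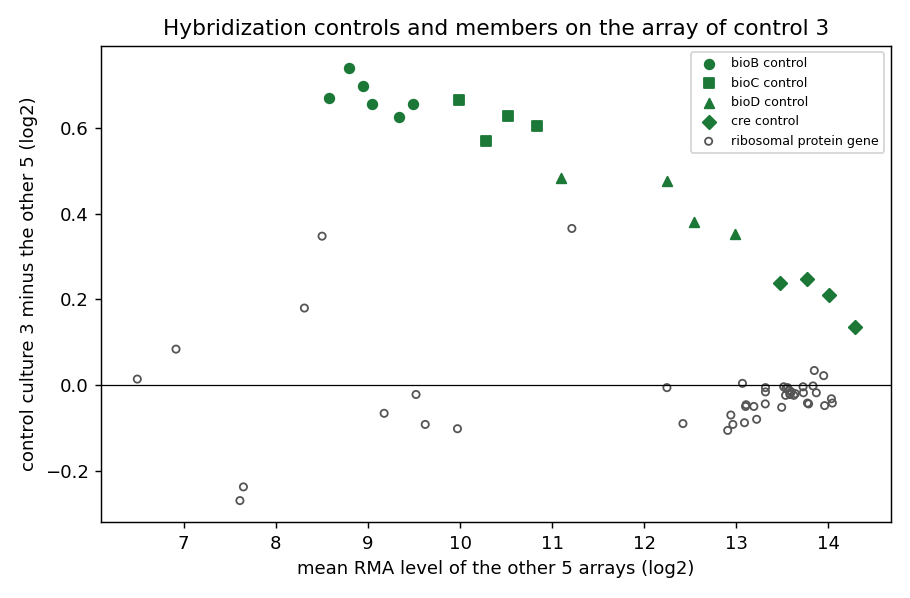
Value of control culture 3 minus the mean of the other 5 arrays (log2) against that mean, for 18 hybridization control probe sets (green, by transcript) and the ribosomal protein genes above level 6 (grey circles). The green marks come down from 0.742 at the left to 0.136 at the right, and most members at or above 13 lie slightly below 0.

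The dimmest members were Rps15a-ps6, a pseudogene, with 2.47 to 2.50 in irradiated cultures and 2.51 to 2.55 in controls, Rps16 and Rpl3l, a paralog of Rpl3 made mainly in heart and skeletal muscle. Rps16, a small subunit protein whose tail contacts tRNA, had 2.51, 2.62 and 2.56 in irradiated cultures and 2.63, 2.74 and 2.29 in controls on its own probe set. The 2 probe sets that list Rps16 with other symbols had mean levels of 13.19 and 14. Rpl39, a short protein of the exit tunnel, had 6.52, 6.48 and 6.42 in irradiated cultures and 6.49, 6.57 and 6.51 in controls, and Rps27 had 6.84, 6.95 and 7.01 in irradiated cultures and 6.88, 6.90 and 7 in controls. A probe set listing Rpl39 with other symbols had 14, and one listing Rps27 with others had 13.03. Of the 13 members below 10, 9 (Rps16, Rpl39, Rps27, Rpl12, Rpl14, Rpl27a, Rps25, Rps6 and Rpl37) were also listed in a shared probe set at or above 12. For these 9, a low value on an own probe set is therefore no measure of how little mRNA the gene made. The others, Rpl7l1, Rps4l, Rpl3l and Rps15a-ps6, had no shared set to compare with. How far their low values reflect the amount of mRNA was not tested. Why the own and shared probe sets differ was not tested.

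No gene of the family passed the test for irradiation, and most members, bright and dim alike, lay close to their controls. limma, with the experiment as a block and Benjamini-Hochberg adjustment over all 45037 probe sets, called 0 of the 50 members and 0 of all probe sets (0%), and the lowest adjusted p among members was 0.929. At an unadjusted p under 0.05, it gave 0 of 50 members, against 4.97% of all probe sets. The median member differed by 0.01 (log2, irradiated minus control), with 33 above 0 and 16 below, but by -0.01, with 16 above 0, after centring each array on its median. Without centring, all probe sets had a median of 0.0033, and the members' medians were 0.02, 0 and 0.02 in experiments 1, 2 and 3. The 26 large subunit genes had a median of 0.01 (-0.157 to 0.197), and the 24 small subunit genes had 0.0083 (-0.153 to 0.053). Without experiment 3, whose control array stood apart in the hybridization controls, the members' median was 0.0075 with 28 above 0. Because RMA equalizes the arrays, these are differences relative to all other transcripts.

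The intervals bound how large a difference in array signal could have been. The 95% confidence interval from limma lay within a 1.5-fold change in either direction for all 50 members, with 3 pairs behind each. limma draws the spread of each probe set toward that of all probe sets, which narrows the interval of the most variable members. Rpl27a, with pairs of -0.43, 0.22 and -0.13, had an interval of -0.43 to 0.203. Rpl39l, with pairs of 0, 0.03 and -0.50, had -0.456 to 0.142. With any 1 of the 3 experiments left out, 2 members had an interval reaching past 1.5-fold. For the 31 bright members the differences ran from -0.02 to 0.057, with a median SE of 0.0748. That SE leans on the spread of all probe sets, and it was 0.0331 when the prior spread was allowed to follow the level. In bulk RNA, fewer cells of a kind and less RNA per cell cannot be told apart.

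**Figure D3:**
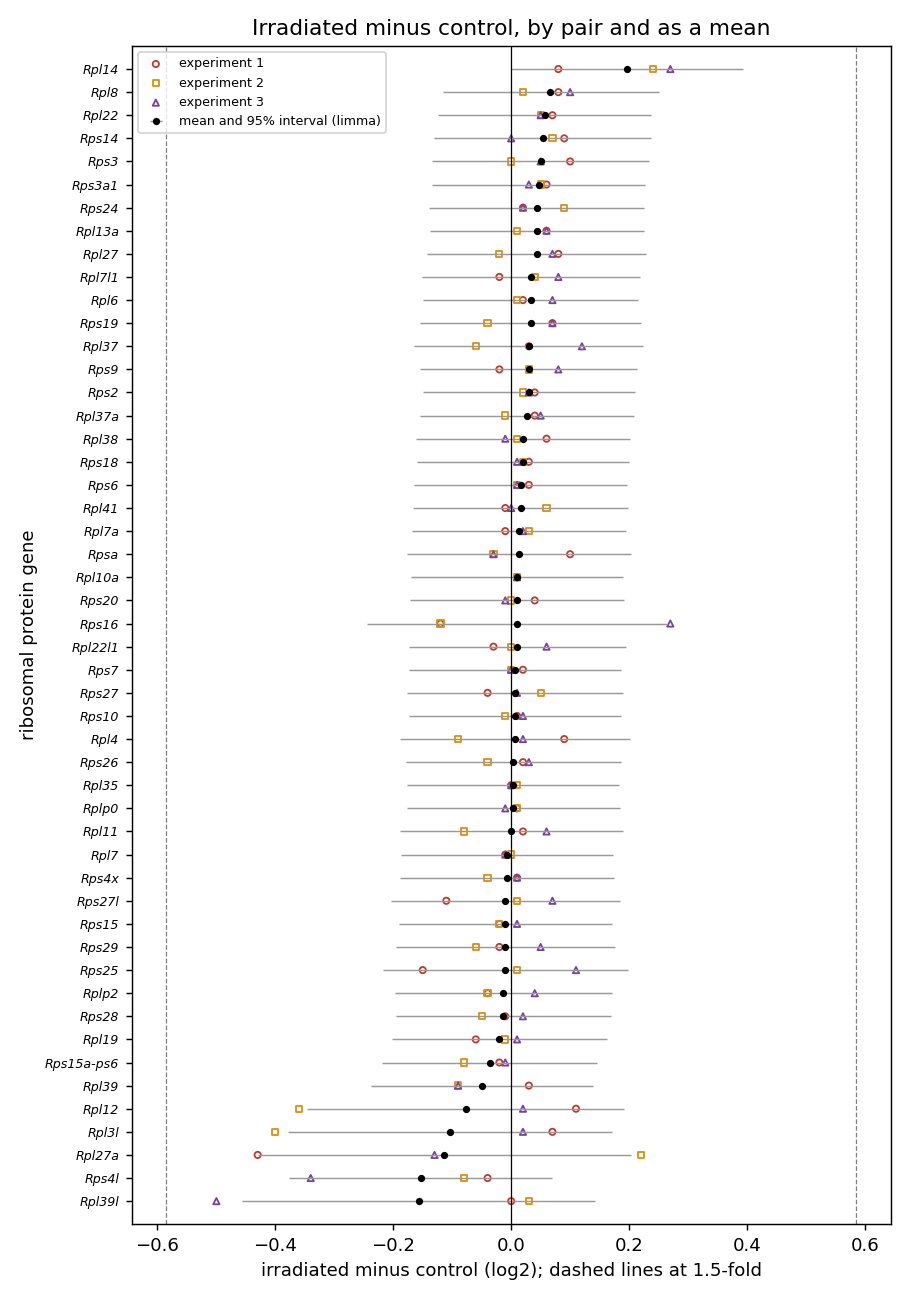
Irradiated minus control (log2) for the 50 genes, with the mean and 95% interval from limma in black and grey and the 3 experiments as open marks. All intervals lie between the dashed lines at 1.5-fold, and the widest belong to genes below 12, such as Rpl39l and Rpl27a.

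The direction was the same in all 3 pairs for 13 members, against 23.8% of all probe sets. Of these, 11 were higher and 2, Rps4l and Rps15a-ps6, were lower in irradiated cultures. The irradiated and control groups did not overlap in 5 members, against 6.73% of all probe sets: Rpl8, Rpl22, Rpl13a and Rps3a1 lay above their controls and Rps15a-ps6 below. Rpl8, whose protein lies beside the peptidyl transferase centre, had 13.01, 12.96 and 12.97 in irradiated cultures and 12.93, 12.94 and 12.87 in controls. Rpl22, an RNA-binding protein of the large subunit that is needed for T cell development in mice, had 13.25, 13.19 and 13.19 in irradiated cultures and 13.18, 13.14 and 13.14 in controls. Rpl13a, which also acts outside the ribosome as a silencer of inflammatory mRNAs, had 13.80, 13.77 and 13.79 in irradiated cultures and 13.74, 13.76 and 13.73 in controls. In all 3 genes every irradiated culture lay above every control, yet by differences of 0.067 ± 0.075, 0.057 ± 0.074 and 0.0433 ± 0.0746 (log2, mean ± SE), none of which passed limma's adjusted test.

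Rpl14, a large subunit protein, came nearest to the threshold. It had 7.76, 7.68 and 7.68 in irradiated cultures and 7.68, 7.44 and 7.41 in controls, a difference of 0.197 ± 0.081 (log2, mean ± SE; 95% interval -0.001 to 0.394), with an unadjusted p of 0.051 and an adjusted p of 0.929 from limma. The groups touched at 7.68, and the difference was above 0 in 3 of 3 pairs. Its own probe set is dim, and the 5 shared probe sets that list Rpl14 differed by -0.027 to 0.087. Next above 0 came Rpl8 and Rpl22, given above, and then Rps14, Rps3 and Rps3a1. Rps14, the small subunit gene whose loss underlies the anaemia of the human 5q- syndrome, had 0.053 ± 0.076. Rps3, a protein of the mRNA entry channel, had 0.05 ± 0.076, and Rps3a1 had 0.047 ± 0.074.

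Below 0, the members nearest to the threshold were mostly dim or near relatives. Rpl39l, a paralog of Rpl39 best known from male germ cells, had 11.22, 11.29 and 11.08 in irradiated cultures and 11.22, 11.26 and 11.58 in controls. Its difference of -0.157 ± 0.123 (log2, mean ± SE; adjusted p 0.934 from limma) came from experiment 3, at -0.50, against 0 and 0.03 in experiments 1 and 2. It was 0.015 without experiment 3. In that experiment the bioD control nearest to it in level, at 11.1, differed by -0.36 between the same 2 arrays. Between these arrays the members next above and below Rpl39l in level, Rpl22l1 (12.245) and Rpl37 (9.955), differed by 0.06 and 0.12. Whether the difference in the controls bears on the value of Rpl39l was not tested.

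Rps4l, a relative of Rps4x, had 8.28, 8.36 and 8.15 in irradiated cultures and 8.32, 8.44 and 8.49 in controls, lower in 3 of 3 pairs, with a difference of -0.153 ± 0.091 that was -0.06 without experiment 3. Rpl27a had 8.13, 8.66 and 8.72 in irradiated cultures and 8.56, 8.44 and 8.85 in controls, and its pairs went in both directions. Rpl12, a protein of the stalk base, had 7.60, 7.62 and 7.36 in irradiated cultures and 7.49, 7.98 and 7.34 in controls. Rpl12 depended on experiment 2 and Rpl27a on experiment 1: without these the differences were 0.065 and 0.045, against -0.077 and -0.113 with all pairs. Rpl3l differed by -0.103 ± 0.113, and by 0.045 without experiment 2, and Rpl39 by -0.05 ± 0.077.

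The members with known roles outside protein synthesis or in disease lay as close to their controls. Rpl11, which binds Mdm2 when ribosome assembly fails, had 13.24, 13.18 and 13.20 in irradiated cultures and 13.22, 13.26 and 13.14 in controls, a difference of 0. Rps6, the substrate of the S6 kinases, had 9.55, 9.52 and 9.51 in irradiated cultures and 9.52, 9.51 and 9.50 in controls. Rpsa, also known as the laminin receptor, had 13.67, 13.53 and 13.53 in irradiated cultures and 13.57, 13.56 and 13.56 in controls, where irradiated culture 1 alone stood above the rest. Rps19, mutated in Diamond-Blackfan anaemia in humans, had 13.34, 13.29 and 13.34 in irradiated cultures and 13.27, 13.33 and 13.27 in controls. Rplp0, the base of the stalk and a common reference gene in PCR assays, had 13.83, 13.86 and 13.87 in irradiated cultures and 13.82, 13.85 and 13.88 in controls, so that all 6 cultures lay within 0.06.

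The near relatives of ribosomal proteins lay at separate places on the scale. Rps27l, a p53 target, had 12.92, 12.86 and 12.87 in irradiated cultures and 13.03, 12.85 and 12.80 in controls. Rpl22l1, whose mRNA is held down by Rpl22 in mice, had 12.21, 12.24 and 12.30 in irradiated cultures and 12.24 in each control. Rpl7l1 had 9.66, 9.60 and 9.61 in irradiated cultures and 9.68, 9.56 and 9.53 in controls. The groups overlapped in all 3 genes. The 6 measured relatives had a median difference of -0.0567, with 2 above 0 and 4 below.

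Between experiments, the bright ribosomal protein genes differed by at most 0.085 (log2), and none of the 50 probe sets that stand for the members passed the test, although 1 dim further probe set of Rps24 did. These contrasts compare the 2 cultures of one experiment with the 2 of another, with the irradiation as a term, so the spread is that between dishes of an experiment. limma called 234 probe sets in experiment 2 minus experiment 1 (0.52%), 1374 in experiment 3 minus experiment 1 (3.05%) and 16 in experiment 3 minus experiment 2 (0.0355%), at an adjusted p under 0.05. The probe sets that stand for the members were called in none of the 3 contrasts, which at these shares is close to the background, and at an unadjusted p under 0.05 the contrasts gave 0, 1 and 1 of the 50, against 9.89%, 19.1% and 9.89% of all probe sets. With the experiment outside a contrast left out, which leaves fewer cultures to estimate the spread, each contrast called 0 probe sets. The members' medians were 0, -0.015 and -0.01, with 24, 37 and 32 members below 0, and the last 2 medians became 0 and 0.01 after centring each array on its median. Of the members' summed squared deviations, 50.6% lay between experiments, 15.1% between irradiated and control cultures and 34.2% in the residual. Over all probe sets the first 2 shares were 65.5% and 11.8%, and in the 31 bright members 44.8% and 22.1%. With 3 experiments against 2 groups, the share between experiments would on average be the larger even in pure noise, so these shares are a description.

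**Figure D4:**
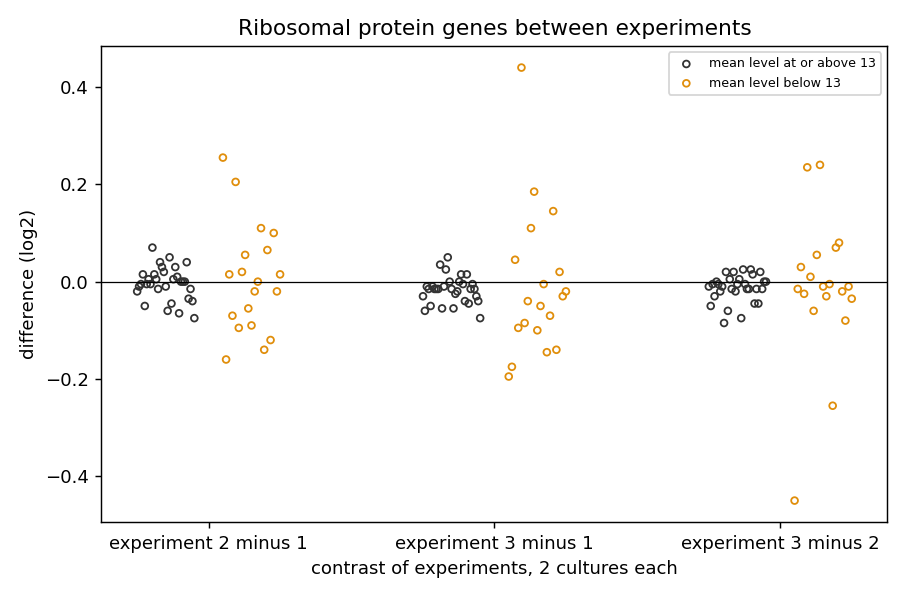
Difference between experiments (log2) for each ribosomal protein gene, in black for the 31 genes at or above 13 and in orange for the others. The black marks stay between -0.085 and 0.07 in all 3 contrasts, and the orange ones reach from -0.45 to 0.44.

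The outer values belonged to dim probe sets, named here after their values were seen. Rpl27a was 0.44 ± 0.159 higher in experiment 3 than in experiment 1 (limma adjusted p 0.213), with means of 8.785 and 8.345, and Rpl12 was 0.45 lower in experiment 3 than in experiment 2 (difference -0.45 ± 0.135, adjusted p 0.412), with means of 7.35 and 7.80. The interval stayed within 1.5-fold for 49, 49 and 48 of the 50 members in the 3 contrasts. Of the 239 probe sets at or above 13, 1, 3 and 0 were called in the 3 contrasts. The 2 of these with a gene name, likewise picked after their values were seen, lay below 13 in both cultures of experiment 1. Egr1, an immediate early transcription factor, had 11.91, 13.54 and 13.74 in irradiated cultures 1 to 3 and 11.96, 13.51 and 13.61 in controls, and its differences from experiment 1 were 1.59 in experiment 2 and 1.74 in experiment 3 (limma adjusted p 0.00446 and 0.00106). Hspa5, a chaperone of the endoplasmic reticulum, had 12.80, 13.15 and 13.71 in irradiated cultures and 12.82, 13.18 and 13.77 in controls, a difference of 0.93 between experiments 3 and 1 (adjusted p 0.00755). These calls, too, were lost with the experiment outside the contrast left out.

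For 24 members more than 1 probe set named the gene alone, and these tell how far a result belongs to a probe set. In 4 genes (Rps29, Rps28, Rps14 and Rps7) all 10 sets lay at or above 13, and within a gene they differed in irradiated minus control by at most 0.033. By the larger of the spreads in irradiated minus control and in the contrasts between experiments, the 4 genes whose own sets differed most were Rps24, Rps18, Rpl27a and Rps10. Of 106 such sets, 0 were called between irradiated and control cultures and 1 between experiments, a dim set of Rps24. That call was in experiment 3 minus experiment 1, where 3.05% of all probe sets were called. So 1 call among 106 sets does not exceed the background, and the set is described because it was called. Rps24 encodes a small subunit protein, and its mRNA is alternatively spliced at the 3′ end. The dim set had 7.83, 7.34 and 6.50 in irradiated cultures 1 to 3 and 7.86, 7.42 and 7.06 in controls, so that both cultures of experiment 3 were lowest and both of experiment 1 highest. Experiment 3 minus experiment 1 was -1.065 (log2, limma adjusted p 0.0219), and the adjusted p was 0.229 without experiment 2. In the 4 sets of Rps24 with mean levels of 12.85 to 13.72 that contrast ran from -0.065 to -0.035, and in the dimmest, at 4.92, it was 0.155.

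**Figure D5:**
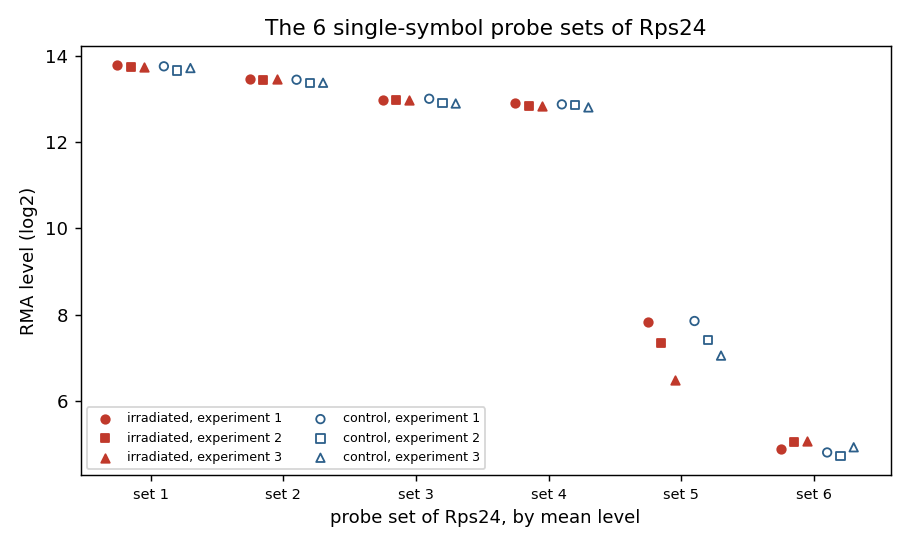
RMA level (log2) of the 6 probe sets that name Rps24 alone, with irradiated cultures as filled red marks and controls as open blue marks, 1 mark shape per experiment. Sets 1 to 4 are level across cultures, and set 5 is lowest in experiment 3 in both groups, at 6.50 in the irradiated culture and 7.06 in the control.

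Rps18, a protein at the head of the small subunit, had 3 sets at or above 13 with differences of 0.02 to 0.03 between irradiated and control cultures, and 3 sets below 10, of which one at a mean level of 3.64 gave 0.203. That set had 4.09, 3.92 and 3.23 in irradiated cultures and 3.85, 3.47 and 3.31 in controls, and experiment 3 minus experiment 1 was -0.70 (limma adjusted p 0.0616). In Rps10, 4 sets at or above 13 gave 0.007 to 0.067, and the set at 5.32 gave -0.103. The second set of Rpl27a, at 2.87, gave 0.02, against -0.113 for the first. Among the 110 probe sets that list a ribosomal protein gene with other symbols, 0 were called between irradiated and control cultures, and the median difference was 0.0217. Between experiments, 1 of the 110 was called in experiment 2 minus 1 and 3 in experiment 3 minus 1, against 0.52% and 3.05% of all probe sets. These counts are close to that background.

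Genes that control the family or share its start motif were also not called between irradiated and control cultures. Elongation factors and other mRNAs with the motif had a median difference of 0.0217 over 18 genes, with 13 above 0. Initiation factors had 0.0383 over 18 genes, with 16 above 0. Over all probe sets, 23007 of 45037 were above 0. Centring each array on its median, which moved the members' count above 0, was not run for these gene groups, so their counts are a description. The mTORC1 and LARP1 group had -0.0467 over 13 genes, with 10 below 0, led by Eif4ebp1, a repressor of cap-dependent translation, with 11.51, 11.62 and 11.38 in irradiated cultures and 11.83, 11.75 and 11.51 in controls (difference -0.193 ± 0.082, limma adjusted p 0.929). Medians were 0.0067 for 11 genes of MYC and RNA polymerase I transcription, 0.0033 for 7 of ribosomal stress and p53, -0.0033 for 16 of ribosome assembly and 0.0183 for 6 S6 kinases, against 0.0033 for all probe sets. Fau, which encodes a small subunit protein under another symbol, had 13.26, 13.21 and 13.18 in irradiated cultures and 13.19, 13.19 and 13.17 in controls. Of these groups, only ribosomal stress and p53 had a gene called between experiments. That gene, picked for its call, was Mdm2, the ubiquitin ligase that Rpl11 binds, with 11.03, 11.99 and 11.94 in irradiated cultures and 11.03, 12.01 and 12.16 in controls. Mdm2 was 0.97 higher in experiment 2 than in experiment 1 and 1.02 higher in experiment 3 than in experiment 1 (limma adjusted p 0.0255 and 0.00827, both calls lost with the experiment outside the contrast left out), while Rpl11 had differences of -0.01 and -0.06 in the same contrasts. The other bright reference genes, 8 in number, had a median irradiated minus control of 0.0117.

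Markers describe the cultures behind these values. Of the 5 fat cell markers, Fabp4 was at a mean of 14.41, Adipoq at 13.76, Lpl at 13.7, Cidec at 12.04 and Pparg at 9.54. The 7 macrophage and leukocyte markers ran from Lyz2 at 14.21 down to Itgam at 7.56. Between them lay Csf1r at 12.64, Cd68 at 12.12, Cd14 at 10.63, Adgre1 at 10.04 and Ptprc at 9.82. All 3 endothelial markers were below 4. Of the 5 stromal markers, Pdgfrb was at 10.85, Pdgfra at 9.38, Nt5e at 8.21, Eng at 7.33 and Thy1 at 3.84. Summed levels were 62.9 to 63.26 in irradiated cultures and 63.42 to 64.18 in controls for 5 fat cell markers, and 77.31 to 77.75 in irradiated cultures and 75.88 to 77.09 in controls for 7 macrophage and leukocyte markers. For 5 markers of dividing cells they were 43.28 to 43.82 in irradiated cultures and 40.75 to 43.14 in controls, lowest in control culture 3. They were 39.13 to 40.18 in irradiated cultures and 39.13 to 39.91 in controls for 5 stromal markers. They were 9.59 to 9.81 in irradiated cultures and 9.24 to 10.00 in controls for 3 endothelial markers, and 11.71 to 12.24 in irradiated cultures and 11.48 to 12.62 in controls for 3 muscle markers. No marker passed limma's adjusted test between irradiated and control cultures. Their part in the values of the ribosomal protein genes was not tested.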

How the data were processed

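The deposited values are log2 levels, 1 per probe set and array; per the submitters' processing notes the authors used RMA, affy and limma, with no versions or roles given. The log base is taken to be 2, as RMA gives. Values are rounded to 2 decimals, which is coarse beside the spread of the brightest members. Tests ran on 45037 probe sets, without the 64 Affymetrix controls. Genes were named from the platform annotation; all 50 members matched a RefSeq entry by Entrez identifier. The number of arrays limits the precision.

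limma 3.58.1 in R 4.3.3 (lmFit, eBayes) fitted irradiation with the experiment as a fixed block, and contrasts between experiments with irradiation as a term; all tests were two-sided and adjusted by Benjamini-Hochberg over all probe sets. The pairing comes from the series design, and paired arrays deviated together across probe sets with r = 0.629, 0.142 and 0.505. Across the members alone r was lower, at 0.156, 0.0413 and 0.375. No 2 arrays held identical values. Named were the 6 members nearest to the threshold in each direction, the 5 highest and 5 lowest, the 4 with least agreement between sets, and listed genes of known role; no member passed between experiments, so none was named there by rule. The members and lists were chosen with earlier results of these data known. The steps were tested on simulated data. Alternatives were other normalizations, filters, blocks, priors and probe set choices.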

Additional observations from a re-analysis of the deposited data

How the results depend on the processing

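The median irradiated minus control of the ribosomal protein genes lay between 0.0033 and 0.02 under every alternative run except centring each array on its median, which gave -0.01 and 16 members above 0 in place of 33. Without the replicate block it was 0.01 and 0 probe sets passed, as with it, and no call changed. With an intensity trend, 1 probe set of all passed, which was no member. At an unadjusted p under 0.05 there was 1 member in place of 0 with a random block, the level filter, the trend or the mean of all own sets, 1 shared probe set with the own and shared sets, and 0 to 1 members when 1 experiment was left out. Then 2 intervals reached past 1.5-fold. Other counts above 0 were over other numbers of sets and do not compare directly with 33 of 50. They were 14 with plain sets alone and 10 without the 31 members at or above 13, both over fewer genes, with medians of 0.0033 and 0.0067. With own and shared sets the count was 161 of 216. Ranges with 1 experiment left out were -0.28 to 0.045 for Rpl27a, -0.19 to 0.045 for Rpl3l, -0.17 to 0.065 for Rpl12 and -0.25 to 0.015 for Rpl39l, whose causes were not tested.

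Calls between experiments moved with the filter and the trend: 374 and 742 for experiment 2 minus 1, 2513 and 3698 for 3 minus 1, and 64 and 315 for 3 minus 2, where dropping the arm term gave 52, against 234, 1374 and 16. With the uninvolved experiment left out all 3 were 0, and the dim Rps24 set kept -1.065 with an adjusted p of 0.229 by limma. The members' median for 3 minus 1 was 0 after centring, -0.04 without members at or above 13 and -0.03 in irradiated cultures alone, and for 3 minus 2 it was 0.01 after centring. Plain sets gave 1 lower member for 3 minus 1, the dim Rps24 set. Own and shared sets, 216 in number, gave 1 higher set for 2 minus 1, and 2 higher and 2 lower for 3 minus 1. Of all probe sets, 0.52% and 3.05% were called in these contrasts. The cause of these shifts was not tested.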
